A study of Bos taurus with 42 samples.

Results

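miR-21 is 1 microRNA, and the deposited table holds 1 sequence for it, miR-21-5p, among 12345 small RNA sequences in all and 379 sequences annotated without a mismatch to a bovine miRNA. It was chosen by name: a sequence belonged if its first annotation was miR-21 of either arm, with no mismatch. A further 5 sequences annotated as miR-21-5p with a single mismatch were left out by this rule. The table listed no sequence of the other arm, miR-21-3p, so that arm was not analysed. Absence from the table does not show absence from the cells.

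miR-21 is made from a primary transcript whose gene lies beside VMP1, a gene of autophagy, and the RefSeq table of the ARS-UCD2.0 assembly also places the bovine miRNA gene MIR21 next to VMP1. The mature miRNA loads into Argonaute and represses mRNAs that match its seed. In human and mouse cells its known targets include PDCD4, an inhibitor of translation. It is one of the most abundant miRNAs of many cultured cells and is also known from granulosa and cumulus cells, the somatic cells around the oocyte.

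The 42 libraries hold small RNA under 200 nt from cattle in 12 groups, sequenced on an Ion Proton, to follow small RNAs through early development after cloning and after fertilisation. Nuclear transfer (NT) embryos were cloned from serum-starved ear fibroblasts of a Brahma Spanish cross bull, and in vitro fertilised (IVF) embryos had a Holstein bull as their sire, so the nuclear genotype differs together with the way the embryos were made. At the 2-cell, 8-cell, morula and blastocyst stages, on days 2, 3, 6 and 8, there were 4, 4, 3 and 4 NT libraries and 4, 3, 4 and 3 IVF libraries. Blastocyst-derived cells, called BDC below, gave 3 NT and 4 IVF libraries, and there were 3 libraries of ear fibroblasts and 3 of mature oocytes. Both kinds of embryo were grown on a layer of cumulus cells, and the labels give pools of 20 embryos. Nothing in the labels says that the pools of a group came from separate animals or days, so p-values measure the spread between these libraries, which may be technical.

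The deposited values are log2 values after the authors' variance stabilisation, on which equal steps are close to equal fold changes for an abundant sequence. Whole reads could be recovered from them. All listed sequences were found in NT 2-cell replicate 4, so miRNAs absent from that library enter no share or rank. The libraries held 25119 to 3081186 listed reads, of which 576 to 2268697 were bovine miRNA reads without a mismatch, and miR-21-5p had 46 to 523551 reads. A share of miRNA reads is therefore precise in most libraries, and its 95% Wilson interval is widest in IVF morula replicate 3, at 6.04% to 10.5% around 7.99%. Such intervals cover counting error only. The miRNAs themselves took 1.15% to 7.98% of the listed reads in 2-cell and 8-cell embryos and oocytes, 8.70% to 17.9% in blastocysts and 40.5% to 74.8% in BDC, so the deposited level of miR-21-5p and its share within the miRNAs measure different things. In pooled embryos and bulk cells, fewer cells that hold an RNA and less RNA per cell cannot be told apart.

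3 libraries stood apart from their groups. IVF morula replicate 1 held 56.8% miRNA reads and 0.143% piRNA reads, against 2.29% to 3.85% miRNA reads in the other IVF morula libraries. IVF morula replicate 3 was the smallest library. Fibroblast replicate 1 held 2.88% miRNA reads, against 34.8% and 35.8% in the other fibroblast libraries. Results for the morula and fibroblast groups are also given below without them.

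miR-21-5p was found in all 42 libraries and was the most abundant miRNA sequence in 29 of them. By mean share of miRNA reads it came first in 10 of 12 groups. The exceptions were IVF morulae, where miR-378 stood above it, and NT blastocysts, where it came behind miR-19b, miR-20a and miR-378. The mean of miR-378 in IVF morulae rested on replicate 3, with 264 reads or 45.8% of its miRNA reads, against 1.24%, 3.63% and 3.76% in replicates 1, 2 and 4. In replicates 2 and 4 alone miR-21-5p came first, with a mean of 10.7% beside 6.73% for miR-19b and 3.70% for miR-378. miR-19b and miR-20a belong to the miR-17-92 cluster, known for driving proliferation. The highest rank number was 29, in fibroblast replicate 1.

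Levels in BDC stood above those of every embryo stage by group mean. On the log2 scale, NT BDC had 15.45, 15.22 and 16.07, and IVF BDC had 13.59, 13.66, 16.25 and 16.35. The IVF libraries thus fell into a lower and a higher pair, with all 3 NT libraries between the pairs. The next group by mean was IVF 8-cell embryos, and no library of it reached the lowest BDC library. Single libraries of other groups did overlap with BDC. IVF 2-cell replicate 3 at 14.12, IVF morula replicate 1 at 13.77 and fibroblast replicate 3 at 14.48 lay above the lower IVF BDC pair.

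In the embryos the order of the group means was loose. NT 2-cell embryos had 10.51, 9.87, 12.49 and 10.90, and IVF 2-cell embryos had 10.09, 11.06, 14.12 and 13.03. NT 8-cell embryos had 11.12, 12.69, 10.14 and 13.27, and IVF 8-cell embryos had 11.93, 11.85 and 13.07. In both pairs the libraries of the NT and IVF embryos overlapped, with a wide spread inside each group. NT morulae had 11.69, 11.93 and 11.35, and IVF morulae had 13.77, 11.95, 9.20 and 11.42. The 3 NT morula libraries lay close together, inside the range of the IVF ones, whose highest and lowest are the 2 libraries named above. NT blastocysts had 11.03, 9.62, 11.37 and 10.91, and IVF blastocysts had 11.88, 11.55 and 11.54. No NT blastocyst library reached the lowest IVF one. Oocytes had 12.88, 11.24 and 11.79.

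**Figure D1:**
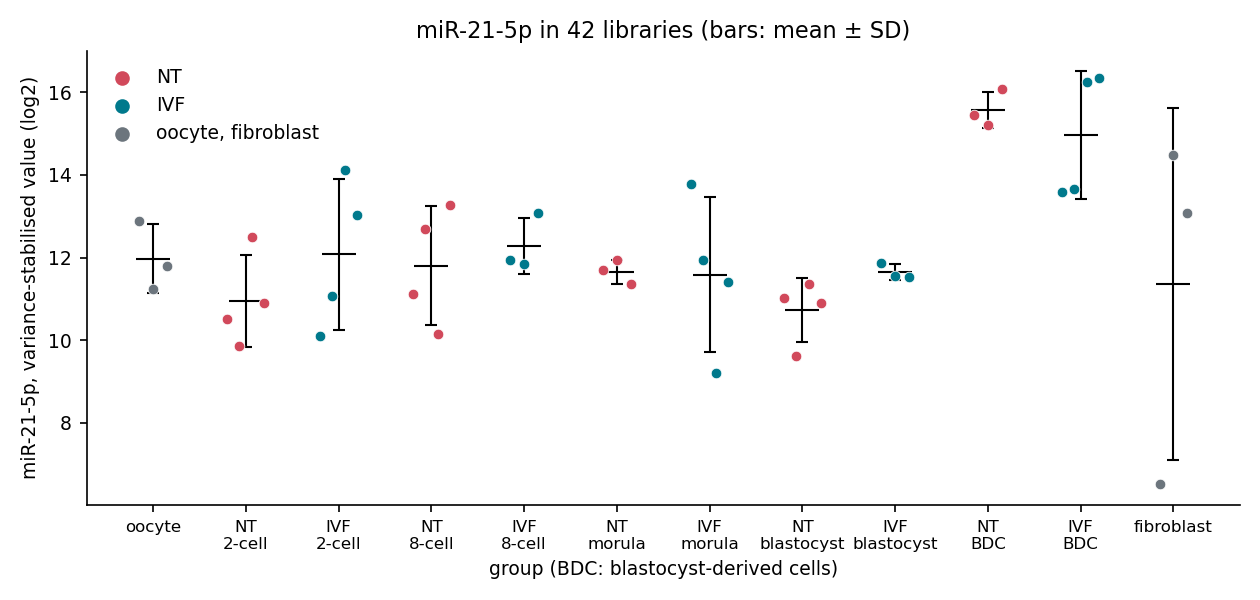
Deposited variance-stabilised log2 value of miR-21-5p (y axis) in each of 42 libraries, by group (x axis, with fibroblasts last). Points are libraries and bars are mean ± SD. BDC libraries sit between 13.59 and 16.35, above every blastocyst library, and the fibroblast libraries run from 6.51 to 14.48.

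Ordered by mean, the groups ran from NT BDC at 15.58 ± 0.44 (SD, n = 3) and IVF BDC at 14.96 ± 1.54 (n = 4) to IVF 8-cell embryos at 12.28 ± 0.68 (n = 3), IVF 2-cell embryos at 12.08 ± 1.83 (n = 4) and oocytes at 11.97 ± 0.83 (n = 3). Below these came NT 8-cell embryos at 11.80 ± 1.43 (n = 4), IVF blastocysts at 11.66 ± 0.20 (n = 3), NT morulae at 11.66 ± 0.29 (n = 3) and IVF morulae at 11.59 ± 1.88 (n = 4). Fibroblasts at 11.36 ± 4.26 (n = 3), NT 2-cell embryos at 10.94 ± 1.12 (n = 4) and NT blastocysts at 10.73 ± 0.77 (n = 4) came last. 1 pair of neighbours in this order, IVF BDC and IVF 8-cell embryos, had ranges that did not overlap. All other neighbours differed by less than the larger of their SDs.

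Within the miRNA reads, miR-21-5p was as prominent in some early embryos as in BDC. Its share was 23.6%, 22.4% and 23.6% in NT BDC and 15.9%, 12.4%, 22.1% and 21.9% in IVF BDC. NT 2-cell embryos had 4.42%, 3.10%, 21.5% and 6.20%, and IVF 2-cell embryos had 3.25%, 8.76%, 34.8% and 16.1%. NT 8-cell embryos had 7.54%, 23.5%, 3.03% and 27.5%, and IVF 8-cell embryos had 13.6%, 14.2% and 28.4%. These cleavage stages held both the highest share of any library, 34.8% in IVF 2-cell replicate 3, and shares close to 3%. NT morulae had 10.4%, 15.2% and 8.27%, and IVF morulae had 9.34%, 11.4%, 7.99% and 10.0%. IVF morula replicates 1 and 3, which lay far apart in deposited level, were alike in share. NT blastocysts had 6.80%, 3.01%, 6.01% and 7.02%, and IVF blastocysts had 8.66%, 11.2% and 9.48%. Oocytes had 13.5%, 6.12% and 10.9%.

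**Figure D2:**
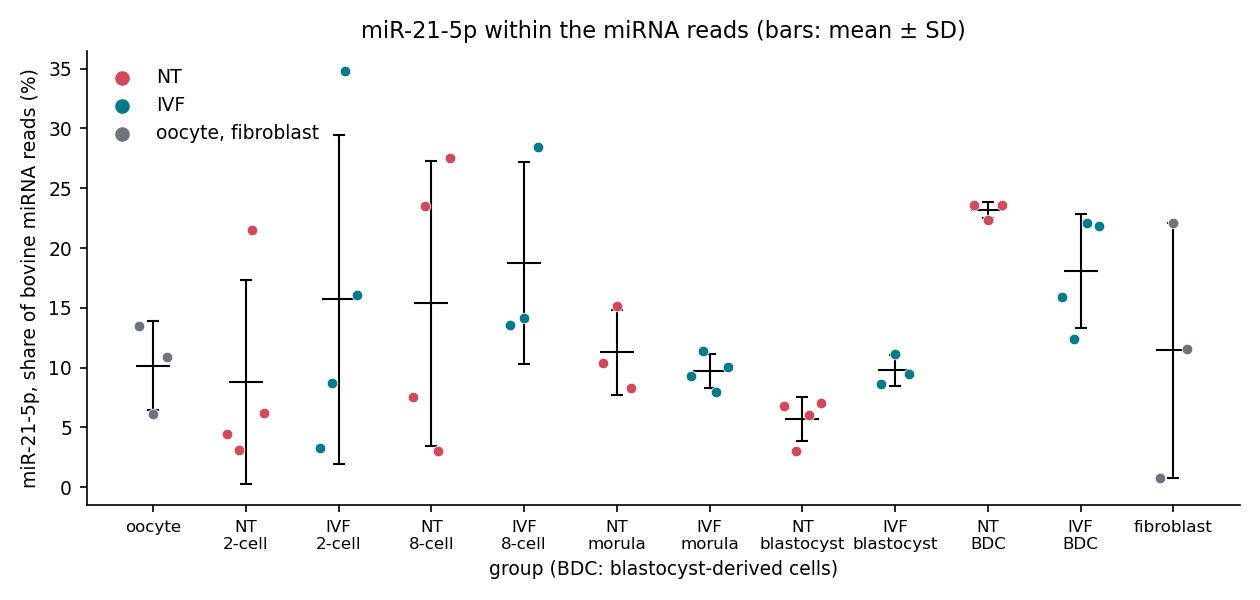
miR-21-5p as a percentage of bovine miRNA reads (y axis) in each of 42 libraries, by group (x axis). Points are libraries and bars are mean ± SD. NT and IVF BDC reach 23.6% and 22.1%, and 2-cell and 8-cell libraries spread from 3.03% to 34.8%.

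Whether cloned embryos differ from fertilised embryos was asked at each stage. miR-21-5p passed the test at none of the 5 stages (limma over all 12 groups, Benjamini-Hochberg adjustment over 12039 sequences). NT minus IVF was -1.13 ± 1.39 (SE) in 2-cell embryos, with a 95% interval of -3.90 to 1.63 (adjusted p = 0.75). The median of all sequences lay at 0.34 in that comparison, and 2.28% of them passed. Every listed sequence was found in NT 2-cell replicate 4, against 5513 to 6606 in the other 2-cell libraries. In comparisons with NT 2-cell embryos, the median and the share passing are therefore partly set by which sequences are listed. Leaving out single 2-cell libraries moved this difference between -1.80, without IVF replicate 1, and -0.45, without IVF replicate 3. In 8-cell embryos the difference was -0.48 ± 1.50, with an interval of -3.47 to 2.51 (limma adjusted p = 0.983), beside a median of 0.33 over all sequences and 0.00831% passing. In morulae it was 0.07 ± 1.50, with an interval of -2.92 to 3.06 (limma adjusted p = 1), beside a median of 0.31. There 0% passed with limma, 1223 sequences had an unadjusted p under 0.05, and limma's voom method called 18. Without IVF morula replicates 1 and 3 the morula difference was -0.03.

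In blastocysts NT minus IVF was -0.92 ± 1.50 on the log2 scale, with an interval of -3.91 to 2.07 (limma adjusted p = 1, 0.00831% of sequences passing). Of 373 miRNA sequences ranked by this difference from the highest, miR-21-5p was number 336, and the median miRNA stood at -0.16. As a share of miRNA reads it averaged 5.71% ± 1.85 in NT blastocysts (SD, n = 4) and 9.76% ± 1.28 in IVF blastocysts (n = 3). The log2 difference in share was -0.84 and the libraries did not overlap (two-sided exact permutation p = 0.0571, the smallest that 35 splits allow, adjusted p = 0.143 over 5 stages). With 3 against 4 libraries this test cannot pass 0.05. As a share of all listed reads the difference was -0.51 and the libraries overlapped (two-sided exact permutation, adjusted p = 0.786).

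In BDC the order was the other way round. NT minus IVF was 0.61 ± 1.50, with an interval of -2.38 to 3.60 (limma adjusted p = 1). Here 0% of sequences passed with limma, 33 had an unadjusted p under 0.05, and voom also called 0. The share averaged 23.2% ± 0.71 in NT BDC (SD, n = 3) and 18.1% ± 4.75 in IVF BDC (n = 4), a log2 difference of 0.40 with no overlap (two-sided exact permutation p = 0.0571, adjusted p = 0.143). As a share of all listed reads it was 0.60 and the libraries overlapped (two-sided exact permutation, adjusted p = 0.786). When limma weighted the libraries by quality, the difference in level turned to -0.13. At the earlier stages the share differed by -0.78 in 2-cell embryos (two-sided exact permutation p = 0.4), -0.68 in 8-cell embryos (p = 0.514, exact) and 0.19 in morulae (p = 0.514, exact), each with overlapping libraries. Leaving out single libraries moved the 2-cell share difference between -1.38, without IVF replicate 1, and -0.24, without IVF replicate 3, and the 8-cell one between -1.12, without NT replicate 4, and -0.06, without NT replicate 3.

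Along development miR-21-5p passed at no step. In NT embryos it stood at -1.03 ± 1.50 from oocyte to 2-cell (limma adjusted p = 0.743, 2.43% of sequences passing), 0.86 ± 1.39 from 2-cell to 8-cell (0.865, 0.498%), -0.15 ± 1.50 from 8-cell to morula (1, 6.35%) and -0.92 ± 1.50 from morula to blastocyst (0.938, 1.38%). The same steps in IVF embryos were 0.11 ± 1.50 (limma adjusted p = 1, 3.03% passing), 0.21 ± 1.50 (1, 0.116%), -0.70 ± 1.50 (0.82, 12.8%) and 0.07 ± 1.50 (1, 0.00831%). Without IVF morula replicates 1 and 3 the steps into and out of the IVF morula were -0.59 (limma adjusted p = 0.947) and -0.03 (adjusted p = 1). Over all sequences that choice moved the number passing from morula to blastocyst to 1687 of 12036, against 1 with all libraries, and from 8-cell to morula to 11, against 1535. From oocyte to blastocyst the change was -1.23 ± 1.50 in NT (limma adjusted p = 0.592) and -0.31 ± 1.61 in IVF (adjusted p = 1). Over that span 40.4% of all sequences passed in NT and 35.4% in IVF, most of them lower in blastocysts, and the median sequence stood at -0.87 and -0.86. With each library centred on its own median the sign turned, to 0.32 in NT and 1.24 in IVF. Within the miRNA reads it was -0.83 in NT and 0.01 in IVF.

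On the deposited scale the step from blastocysts to BDC was the largest for miR-21-5p between successive stages. In NT it was 4.84 ± 1.50 on the log2 scale, or 28.7-fold, with a 95% interval of 1.85 to 7.83, and in IVF it was 3.31 ± 1.50, or 9.89-fold, with an interval of 0.32 to 6.30. Every BDC library lay above every blastocyst library in both. With the spread shared over 12 groups neither passed (limma adjusted p = 0.0618 in NT and 0.312 in IVF, unadjusted p = 0.00184 and 0.0306), while 2.87% of all sequences passed in NT and 5.17% in IVF. The call depended on the estimate of the spread. Fitted on the blastocyst and BDC libraries alone, the same differences had limma adjusted p-values of 7.35e-06 in NT and 0.00814 in IVF. That fit tested fewer sequences and passed most of them, 77.6% of 2085 in NT and 67.7% of 2132 in IVF. Without fibroblast replicate 1 and IVF morula replicates 1 and 3, an alternative chosen after seeing the data, they were 1.41e-05 and 0.00372, with 6.72% and 8.98% of sequences passing. The residual SD of miR-21-5p over all groups was 1.62 log2 units, at percentile 90.9 among the miRNAs. The SD used in the tests was higher, at 1.97, as limma drew it towards the intensity trend. Over 24 limma comparisons, 0 passed for miR-21-5p and 4 had an unadjusted p under 0.05, and voom called 2, both of them this step, where voom passed 15.4% of all sequences in NT and 91.8% in IVF.

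Much of the size of this step depends on the scale. On a scale set by the miRNA reads alone it was 2.10 ± 0.74 in NT (limma adjusted p = 0.0496, with 54 of 373 miRNA sequences passing) and 0.86 ± 0.74 in IVF (adjusted p = 0.544). miRNAs as a class took a larger share of the listed reads in BDC than in blastocysts. The part of that share in the gap between the scales was not tested. The median change over all tested miRNAs on the deposited scale was 1.26 in NT and 0.94 in IVF, beside 0.00 over all sequences. miR-21-5p ranked 42 in NT and 65 in IVF among 373 miRNAs by size of change. The difference between the NT and the IVF step was 1.54 ± 2.12, with an interval of -2.69 to 5.76 (limma adjusted p = 1). The earlier steps did not pass this test of a difference either, at 0.66 ± 2.05 from 2-cell to 8-cell, 0.55 ± 2.12 from 8-cell to morula and -0.99 ± 2.12 from morula to blastocyst (limma adjusted p = 0.998, 0.99 and 1). Without IVF morula replicates 1 and 3 the differences beside the morula were 0.45 and -0.89. In these 4 tests of a difference 0.0581% of all sequences passed for the step from 2-cell to 8-cell. For the later steps 0% passed with limma, 577, 846 and 37 sequences had an unadjusted p under 0.05, and voom called 1 in each.

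**Figure D3:**
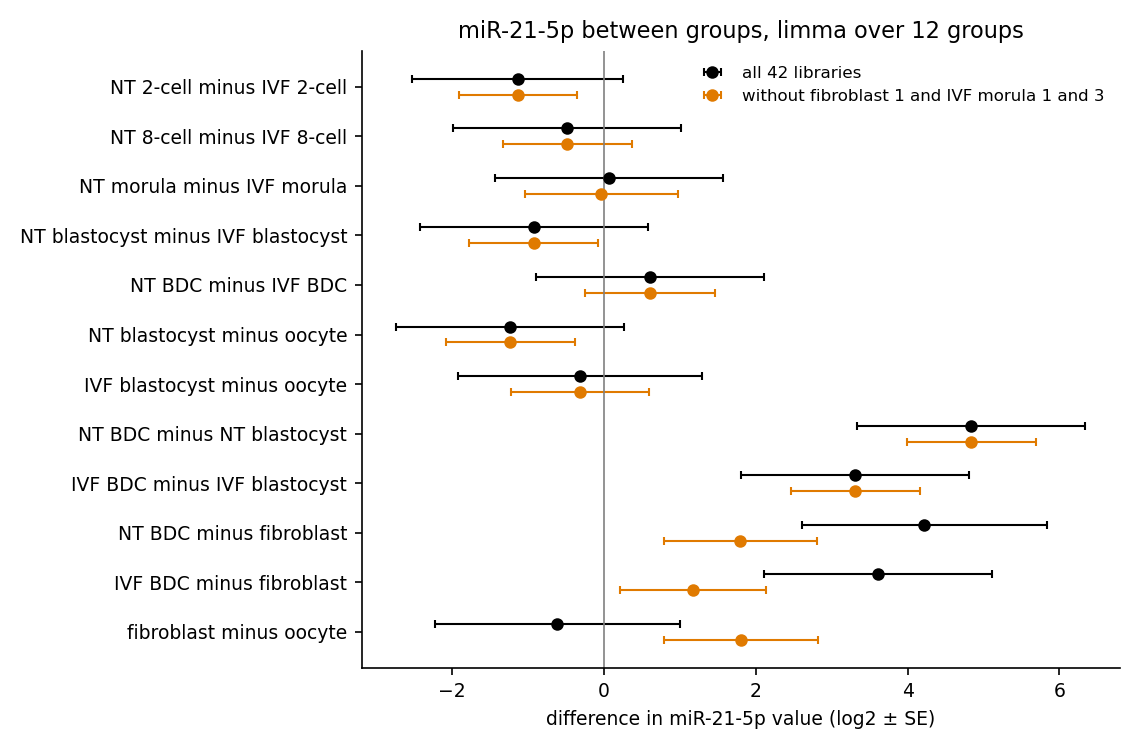
Difference in the deposited log2 value of miR-21-5p between groups (x axis, first group minus second, ± SE from limma) for 12 comparisons (y axis). Black points use all 42 libraries and orange points leave out fibroblast replicate 1 and IVF morula replicates 1 and 3. BDC minus blastocyst lies at 4.84 in NT and 3.31 in IVF in both fits, and fibroblast minus oocyte lies at -0.61 with all libraries and 1.81 without the 3.

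Many other miRNAs typical of cultured somatic cells were higher in BDC. Of 39 sequences of 16 somatic-abundant miRNA names, 25 rose and 0 fell in NT BDC against NT blastocysts, with a median of 3.63, and 24 rose and 0 fell in IVF BDC, with a median of 3.75 (limma adjusted p under 0.05). Over all sequences 0.988% rose in NT and 0.93% in IVF, and over all 373 miRNA sequences tested 84 rose and 12 fell in NT and 76 rose and 9 fell in IVF. On the scale set by the miRNA reads alone more were lower than higher, with 25 higher and 29 lower in NT BDC and 10 higher and 20 lower in IVF BDC. On that scale 6 of the 39 somatic-abundant sequences were higher in NT BDC and 4 in IVF BDC, and 0 were lower in either, with medians of 1.86 and 1.63 beside -0.56 and -0.70 over all 373. Among the 4 most abundant of the list, miR-29a-3p, known in other mammals to repress collagen genes, rose by 5.20 ± 1.09 in NT (limma adjusted p = 0.00103) and 5.47 ± 1.09 in IVF (adjusted p = 0.000426). miR-31-5p rose by 6.62 ± 1.32 in NT (limma adjusted p = 0.000487) and stood at 3.76 ± 1.32 in IVF (adjusted p = 0.0879). miR-23b-3p stood at 3.22 ± 1.07 in NT (limma adjusted p = 0.0944) and rose by 3.40 ± 1.07 in IVF (adjusted p = 0.0427). miR-26a stood at 1.63 ± 1.10 and 1.00 ± 1.10 (limma adjusted p = 1 for both). Of 9 fibroblast and mesenchymal sequences, such as miR-145 and miR-199a, 7 rose in NT BDC and 8 in IVF BDC. The 8 epithelial and trophectoderm sequences came from miR-141, miR-200c, miR-182 and miR-96, 4 of the 9 names of that list. Of these sequences, 5 rose in NT BDC and 1 in IVF BDC, or 2 in IVF BDC without the 3 libraries that stood apart. On the miRNA scale 3 of the 9 mesenchymal sequences were higher in each kind of BDC, and 1 of the 8 epithelial ones in NT BDC and 0 in IVF BDC.

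The BDC libraries differed among themselves in these markers. The mesenchymal list took 2.97% to 4.69% of miRNA reads in NT BDC and 3.40% to 11.2% in IVF BDC, against 0.0798% to 0.172% in NT and 0.179% to 0.266% in IVF blastocysts. IVF BDC replicate 2, in which miR-21-5p had its lowest BDC share of 12.4%, held the 11.2% and had 0% for the epithelial list. The epithelial list took 1.02% to 2.20% in the other BDC libraries. In these values IVF BDC replicate 2 lay closer to fibroblast replicate 4 than to the other BDC libraries. Fibroblast replicate 4 held 11.0% for the mesenchymal and 0.000399% for the epithelial list, with a miR-21-5p share of 11.6%. Leaving out single BDC or blastocyst libraries moved the step to between 4.47 and 5.05 in NT and between 2.84 and 3.76 in IVF. The part of cell makeup in the level of miR-21-5p was not tested.

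Ear fibroblasts are the donors of the NT nuclei, and their libraries did not give 1 level. miR-21-5p stood at 6.51, 14.48 and 13.08 on the log2 scale in fibroblast replicates 1, 3 and 4, with 148, 84468 and 115872 reads and shares of 0.739%, 22.1% and 11.6%. The lowest library lay below all other libraries of the study, and the other 2 lay above all oocytes. Against oocytes the difference was -0.61 ± 1.61 (limma adjusted p = 0.974, 41.8% of sequences passing, median sequence at -0.97). Without fibroblast replicate 1 and the 2 IVF morulae it was 1.81 ± 1.01 (adjusted p = 0.168). Against fibroblasts, NT BDC stood 4.22 ± 1.61 higher (limma adjusted p = 0.578, 0.673% passing) and IVF BDC 3.61 ± 1.50 higher (adjusted p = 1, 0.307% passing). Without those 3 libraries these differences were 1.80 and 1.18. Without fibroblast replicate 3 alone they were 5.78 (limma adjusted p = 0.105) and 5.17 (adjusted p = 0.21), and fibroblast minus oocyte was -2.17.

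The fibroblast libraries also differed in their markers. The mesenchymal list took 6.19% and 11.0% of miRNA reads in replicates 1 and 4 and 1.43% in replicate 3. In replicate 3 the cumulus and granulosa list took 5.37%, nearly all of it from miR-202 at 3.70% and miR-202-5p at 1.61%. The miR-132 and miR-212 sequences of the list stood at 0.012% or less each in that library. Replicate 1 had 0 reads of the list and replicate 4 had 0.00259%. A count of 0 allows up to 3 reads. miR-31-5p took 7.28% of replicate 3, against 0.0799% and 0.0303% in replicates 1 and 4. miR-22-3p, abundant in many differentiated cells, led replicate 1 at 14.7%. The library labelled fibroblast replicate 3 thus differed from replicates 1 and 4 in these markers, among them miR-202. Which cells it held was not tested. Its epithelial list was low, at 0.0159%, against 0% and 0.000399% in replicates 1 and 4. Its mesenchymal share lay above the 0.0977% to 0.307% of oocytes. Replicate 3 had the highest miR-21-5p of the 3. The part of other cells in that level was not tested.

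**Figure D4:**
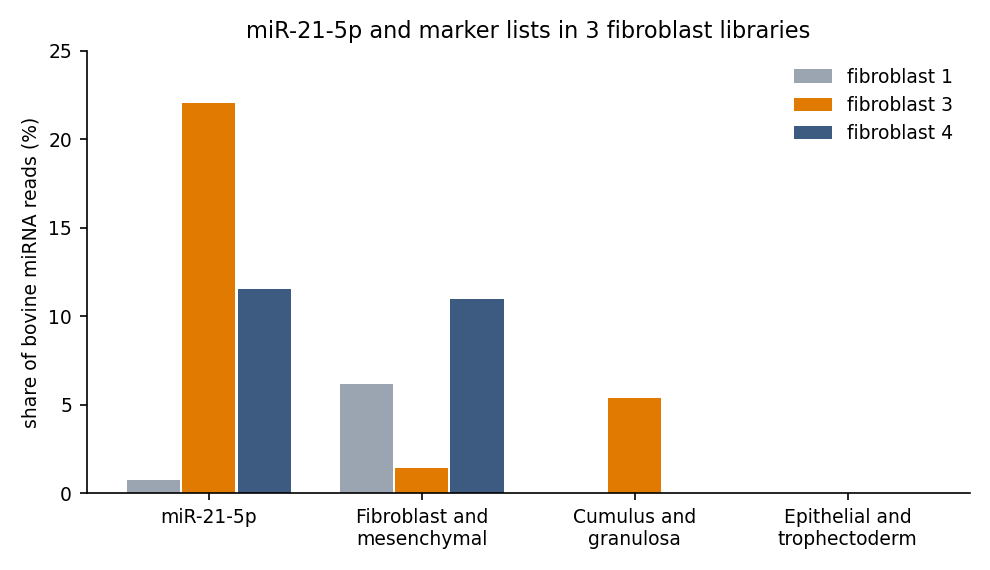
Share of bovine miRNA reads in percent (y axis) taken by miR-21-5p and by 3 marker lists (x axis) in the fibroblast libraries of replicates 1, 3 and 4. Bars are single libraries, with no error. Replicate 3 has the tallest miR-21-5p bar, at 22.1%, and is the only one with a visible cumulus and granulosa bar, at 5.37%. Nearly all of that bar is miR-202.

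At the cleavage stages the share of miR-21-5p varied widely inside each group. The cumulus and granulosa list and the somatic-abundant list rose with it, and the mesenchymal and blood lists did not pass. The list of cumulus and granulosa miRNAs had 3 of its 5 names in the table, miR-202, miR-132 and miR-212, with 7 sequences. In oocytes and cleavage embryos most of its reads were miR-202. In IVF 2-cell replicate 3, miR-202-5p had 397 and miR-202 had 146 of 584 list reads. In oocyte replicate 1 they had 177 and 130 of 321. The list took 0.982% to 2.90% of miRNA reads in oocytes. It took 0.281% to 1.01% in NT 2-cell and 0.125% to 1.67% in IVF 2-cell embryos, and 0.322% to 0.841% in NT 8-cell and 0.466% to 0.512% in IVF 8-cell embryos. It was at 0.0367% to 0.100% in NT and 0.0409% to 0.136% in IVF blastocysts, and at 0.00217% or less in NT BDC and 0.0859% or less in IVF BDC.

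Over the 15 libraries of 2-cell and 8-cell embryos, the log2 share of the list among the other miRNA reads and the log2 share of miR-21-5p had a Pearson r of 0.843 (permutation p = 2e-05, the smallest that the permutations can give, adjusted p = 0.00018 over 18 relations of 6 lists) and a Spearman rho of 0.832 (permutation p = 0.00014). Without the 2 libraries farthest from the median, IVF 2-cell replicates 1 and 3, r was 0.805. Within the 8 libraries of 2-cell embryos r was 0.916 (exact permutation p = 0.00451, adjusted p = 0.00903) and rho 0.69 (exact permutation p = 0.0694), and r was 0.767 without 2 libraries. Within the 7 libraries of 8-cell embryos r was 0.875 (exact permutation p = 0.00317, adjusted p = 0.00893) and rho 0.857 (exact permutation p = 0.0238), and r was 0.889 without 2 libraries. Some list counts were as low as 8 reads. Most list reads in these libraries were miR-202, so the relation is largely one of miR-202 with miR-21-5p.

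The somatic-abundant list, which does not hold miR-21, varied with miR-21-5p as closely. It took 13.2% to 26.8% of the other miRNA reads, with r = 0.854 and rho = 0.925 over the 15 libraries (permutation, adjusted p = 0.00018 and 0.00036), and r was again 0.854 without the 2 farthest libraries. Within the 2-cell libraries r was 0.866 and within the 8-cell libraries 0.836 (exact permutation, adjusted p = 0.00518 and 0.0207). The reference list of other miRNAs ran the other way, at r = -0.867 (permutation, adjusted p = 0.00036), and so did the epithelial list, at r = -0.709 (permutation, adjusted p = 0.00893). The mesenchymal list, at r = -0.0768, and the blood list, at r = 0.358, did not pass (permutation, adjusted p = 0.898 and 0.26). Shares of 1 total depend on each other. The relations were chosen after seeing the data, and the part of cumulus or other somatic RNA in the miR-21-5p level was not tested.

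**Figure D5:**
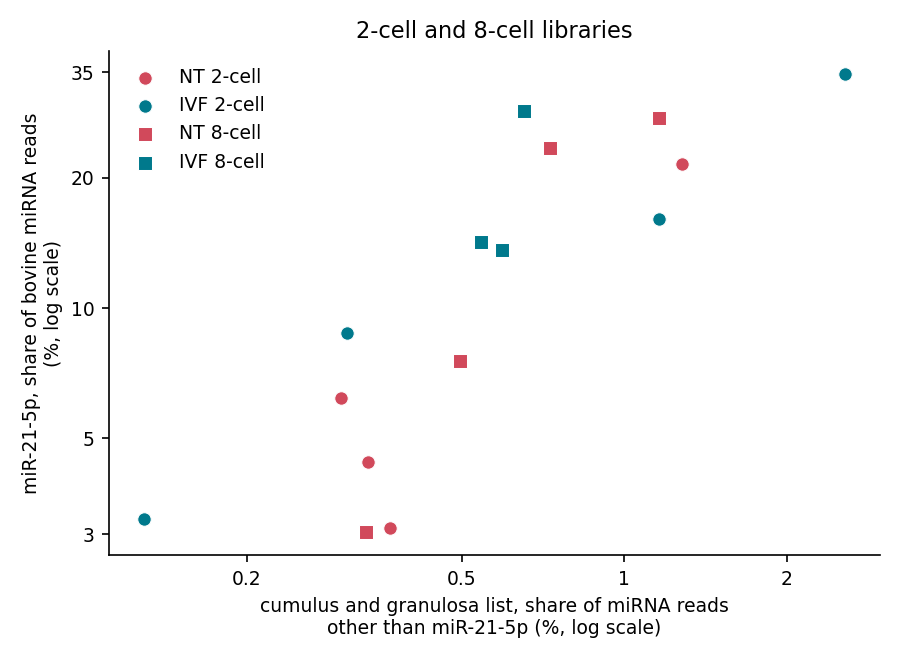
Share of bovine miRNA reads taken by miR-21-5p (y axis, %, log scale) against the share of the cumulus and granulosa list among all other miRNA reads (x axis, %, log scale) in 15 libraries of 2-cell embryos (circles) and 8-cell embryos (squares), NT in red and IVF in blue. The points run from low in both to high in both, with r = 0.843. Most reads of the list in these libraries were miR-202.

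The miRNAs whose group means followed miR-21-5p most closely over the 12 groups were miR-130a (Pearson r = 0.959, Spearman rho = 0.517), miR-99a-5p (0.945, 0.727), miR-29b (0.939, 0.545), miR-335-3p (0.937, 0.417) and miR-27a-3p (0.936, 0.643). These are descriptions over 12 means that share libraries and scaling, and the high r with a lower rho goes with the BDC groups standing apart. miR-130a stood at 11.79 in NT BDC and 10.48 in IVF BDC and between 5.38 and 6.43 in all other groups. miR-27a-3p, by contrast, had 8.76 in fibroblasts and 8.64 in IVF 8-cell embryos. Without the 3 libraries that stood apart the 5 closest were miR-27a-3p, miR-125b, miR-29b, let-7d and let-7c, so 2 of the 5 names remained.

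The 5 mismatched forms of miR-21-5p held 532 reads in 17 libraries, 0.0247% of the reads of miR-21-5p itself. In NT 2-cell replicate 4 all 5 forms were present, with 13 reads in all, 0.817% of the miR-21-5p reads there, against at most 0.12% in the other libraries. All 12345 listed sequences were found in that library, and no other library held more than 8919. A sequence found only elsewhere, mismatched or not, is therefore not in the table. Shares, ranks and marker lists, also those of BDC and fibroblasts, cover only sequences found in that library.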

How the data were processed

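The authors used Trim Galore and DESeq2 and the builds bosTau8 and UMD3.1, per the submitters' processing notes. For the aligner and the read counter, tool names were not given in the sources used here. All deposited log2 values, with a lowest value of 1.37, are variance-stabilised after size-factor scaling by the authors. Inverting the transformation gave whole reads for 100% of 188126 values (tolerance 0.01), setting the smallest value of each library to 2 reads. The read scale rests on that choice. Shares and ranks used these reads.

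limma 3.58.1 in R 4.3.3 was fitted over 12 groups with no covariates and an intensity trend (30 residual and 49.5 prior degrees of freedom), with Benjamini-Hochberg adjustment at 0.05. Tested were 12039 sequences that lay 1 log2 unit above the lowest value in 3 libraries or more. Shares were compared by exact permutation tests. Python 3.11.15 and scipy 1.17.1 were used for the rest.

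The miRNA, the lists, the comparisons and the alternatives were chosen with earlier results of these data known. Named miRNAs were the 5 with the closest group means and the 4 most abundant of the somatic list; markers that led a fibroblast library and miRNAs that stood above miR-21-5p were named after their values were seen. The labels give 4 pools per stage in one place and 3 in another. The labels' replicate numbers were checked as pairs in the groups compared. Of these, only IVF BDC and fibroblasts had all 3 pairs correlated above 0.1 (0.185 to 0.458), and there the block changed no call for miR-21-5p.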

Additional observations from a re-analysis of the deposited data

Results flagged for a closer look

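NT 2-cell replicate 3 had a miR-21-5p share of 21.5% of miRNA reads, far from 3.10% to 6.20% in the other 3 libraries of its group. Its gap took up 0.831 of the group's range, just past Dixon's critical value for 4 libraries. On the log2 scale its level, 12.49 beside 10.51, 9.87 and 10.90, was looked at in the same way and was not marked. 12 measures in 6 groups of 4 were looked at, and chance marks about 1 in 20. That library also held the highest share of the cumulus and granulosa list among the NT 2-cell libraries, 1.01%, and the part of that list was not tested.

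The mismatched forms of miR-21-5p, which entered no comparison, had 148 reads in NT BDC replicate 4, the library with the most miR-21-5p reads, 523551.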

How the results depend on the processing

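Of 559 values under other settings, 500 kept their direction and their side of the threshold, 15 newly passed, 44 turned in sign and 0 lost a call. None of the turned values passed the test. The cause of the turns was not tested. BDC minus blastocyst newly passed at 4.84 in NT with a stricter filter and without the intensity trend, at 4.84 in NT and 3.31 in IVF in fits of only the groups compared and without the 3 libraries that stood apart, at 4.85 and 3.31 with voom, at 5.29 and 4.03 with quantile normalisation, and at 2.10 in NT on the miRNA scale. Library weights gave 4.71 in NT and 4.04 in IVF for that step, 3.30 for NT BDC minus fibroblast and 3.44 for IVF BDC minus fibroblast, all past the threshold, and turned NT minus IVF BDC to -0.13 and fibroblast minus oocyte to 0.29. NT BDC minus NT blastocyst passed in 8 of 13 settings other than leaving out 1 library (adjusted p from 7.35e-06 to 0.103) and IVF BDC minus IVF blastocyst in 5 of 13 (from 0.00372 to 0.544). The number of all sequences passing at this step, 345 in NT and 622 in IVF as reported, ran from 231 to 2214 in NT and from 400 to 11053 in IVF in the settings that tested 6677 sequences or more, and was 54 and 30 on the miRNA scale, where 373 sequences were tested. Other wide ranges over these settings were 2782 to 10816 for NT blastocyst minus oocyte (4868 as reported), 1513 to 9806 for IVF blastocyst minus oocyte (4260), 2371 to 11380 for fibroblast minus oocyte (5029) and 0 to 1687 for IVF blastocyst minus morula (1).

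Centring libraries turned IVF 8-cell minus 2-cell to -0.11, IVF and NT blastocyst minus oocyte to 1.24 and 0.32, NT morula minus 8-cell to 1.26 and fibroblast minus oocyte to 0.94. Quantile normalisation gave NT minus IVF morula -0.54, IVF morula minus 8-cell 0.44, NT morula minus 8-cell 0.64, IVF blastocyst minus morula -0.09, IVF and NT blastocyst minus oocyte 1.24 and 0.46, and fibroblast minus oocyte 1.99. The miRNA scale gave IVF blastocyst minus oocyte 0.01. Without IVF morula replicates 1 and 3, alone or with fibroblast replicate 1, NT minus IVF morula and IVF blastocyst minus morula were both -0.03, and fibroblast minus oocyte without all 3 was 1.81. As a share of all listed reads, NT minus IVF morula was -0.28. With the replicate number as a block, NT minus IVF morula was -0.14, IVF 8-cell minus 2-cell was -0.01 and IVF blastocyst minus morula was -0.14. The block changed no call, with IVF BDC minus fibroblast at 3.71. Of the pairs of groups compared, only that one had all its same-numbered libraries correlated above 0.1. In NT and IVF morulae these correlations ran from 0.0886 to 0.179, and in NT and IVF BDC from -0.087 to 0.466.

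Leaving out 1 library at a time changed no call. It moved fibroblast minus oocyte between -2.17 and 1.81, IVF 2-cell minus oocyte between -0.57 and 0.77, IVF blastocyst minus oocyte between -0.67 and 0.15, IVF 8-cell minus 2-cell between -0.46 and 0.89, IVF morula minus 8-cell between -1.42 and 0.10, and NT morula minus 8-cell between -0.70 and 0.34. NT minus IVF ranged from -0.97 to 0.08 in 8-cell embryos and from -0.72 to 0.80 in morulae, IVF blastocyst minus morula likewise from -0.72 to 0.80, and the morula share difference from -0.05 to 0.39. The NT minus IVF difference in a step ranged from -0.02 to 1.32 between 2-cell and 8-cell and from -0.25 to 1.28 between 8-cell and morula. Summing the sequences of the miRNA gives the same value, as there is 1.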
